A study of Mus musculus with 357 samples.

Results

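Hlf, Mllt3, Fgd5 and Tek are 4 genes used to recognise hematopoietic stem cells (HSCs), the bone marrow cells that renew all blood lineages. They are 4 of the 96 genes measured one cell at a time by reverse transcription and quantitative PCR, and they were chosen by name rather than by their values. The study asked how HSCs differ with their divisional history, which it read from an inducible fluorescent histone that is diluted as a cell divides. All cells came from bone marrow of mice with the genotype Col1a1-tetO-H2B-mCherry and had been sorted as Lin-Sca1+c-kit+CD48-CD150+. In the 5-week group, isolated 5 weeks after the label was induced, were 91 cells on plate 1 and 83 on plate 2. The 2-week group, isolated 2 weeks after induction, held 90 cells on plate 1 and 93 on plate 2. The groups therefore shared allele, tissue and sort and differed, per the labels, in the length of the chase. No source used here gives the inducing agent, the transactivator or the age and number of the mice, and cells were not separated by how much label they kept.

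Hlf encodes a PAR bZIP transcription factor whose expression marks HSCs and falls as they differentiate. Mllt3, also called Af9, encodes a subunit of the super elongation complex that reads acylated histones, and it supports HSC maintenance. Fgd5 encodes a guanine nucleotide exchange factor for the small GTPase Cdc42 and is used as a reporter locus for HSCs in mice, and Tek, printed as TEK in the assay names, encodes Tie2, the angiopoietin receptor through which niche signals are known to hold HSCs in quiescence. Tek and Fgd5 are also active in endothelium.

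A product was called detected at a threshold cycle (Ct) of 25 or below, and a Ct lower by 1 cycle stands for about 1 doubling more template. Cells had 58.8 ± 5.71 detected assays at 5 weeks and 54.6 ± 5.36 at 2 weeks (SD over cells). Their mean Ct over 13 assays detected in nearly every cell, called the reference Ct here, was 12.9 ± 0.70 and 13.5 ± 0.58 cycles in the same order, so 5-week cells gave more product in general. The labels name no animal. Each chase time was therefore 1 sample, cells were not treated as replicates, no test was made between times, and plate and chase time cannot be told apart because each plate held 1 time. Kit was detected in 99.2% of the 357 cells, Ly6a (Sca1) in 82.4%, Slamf1 (CD150) in 64.1% and Cd48 in 5 cells. Of the markers listed for endothelium (6) and mature blood (9), 0 were among the assays, so a check for such cells could not be made.

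Transcripts of 2 of the 4 genes, Hlf and Mllt3, were found in nearly every HSC at both times, whereas those of Tek and Fgd5 were found in part of the cells. Tek was found in more cells at 5 weeks than at 2 weeks. The share with Fgd5 overlapped between the plates of the 2 times.

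The Hlf product was detected in 355 of 357 cells. Its share was 99.4% at 5 weeks and 99.5% at 2 weeks, with 1 undetected cell in each group. It placed 10th of 96 assays by share, in the range of the general assays that set the reference. The Mllt3 product was detected in 340 cells, with 95.6 and 95.2% on the 5-week plates and 96.7 and 93.5% on the 2-week plates. Over both plates this was 95.4% at 5 weeks and 95.1% at 2 weeks. They differ by 0.32 points, with a counting interval of -4.48 to 5.05.

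The Tek product was detected in 199 of 357 cells. It was found in 65.9% of cells on 5-week plate 1 and 63.9% on 5-week plate 2, against 43.3% on 2-week plate 1 and 50.5% on 2-week plate 2. Both 5-week plates were above both 2-week plates, an arrangement called apart below. Over both plates the share was 64.9% at 5 weeks (exact Clopper-Pearson 95% interval 57.4 to 72%), against 47% at 2 weeks (39.6 to 54.5%). The difference was 17.9 points (Newcombe interval 7.65 to 27.7). These intervals cover counting error only. Tek stood among many genes in this: 42.7% of the 96 assays had plates apart and higher at 5 weeks, 7.29% had plates apart and lower, and the median difference was 2.85 points. In a logistic fit with the reference Ct of each cell as covariate the Tek difference was 11.5 points, and with the number of other detected assays as covariate it was 13.9 points.

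The Tek products fell into an early and a late class with a gap between Ct 19.3 and 21.5. Below the gap were 184 products and above it 21, some of them later than the limit of 25. Counting only products at Ct 18 or below, the shares were 59.3 and 60.2% on the 5-week plates and 41.1 and 45.2% on the 2-week plates. The difference was 16.6 points, so it was nearly as large without the late products, which can be non-specific with a dye that reports any double-stranded DNA. The earliest products, at Ct 14 or below, came from 18 cells at 5 weeks and 0 cells at 2 weeks, a Ct chosen after the values were seen and not corrected for the reference Ct.

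The Fgd5 product was detected in 46.5% of the 357 cells, with 54.9 and 41% on the 5-week plates and 48.9 and 40.9% on the 2-week plates. The share over both plates was 48.3% at 5 weeks, against 44.8% at 2 weeks. The 2 plates of a time lay further apart than the times did. The difference of 3.47 points had a counting interval of -6.82 to 13.7 and ran from -3.84 without 5-week plate 1 to 10.1 without 5-week plate 2. Products above Ct 18 made up 7.14% of the Fgd5 products at 5 weeks, against 22.9% at 2 weeks. For Fgd5 this Ct marks no separate late class. Its median Ct was 17.2, and the widest gap lay between Ct 23.1 and 25.8. A limit at Ct 18 is also not corrected for the reference Ct, which was lower at 5 weeks. At Ct 18 or below the shares were 51.6 and 37.3% on the 5-week plates and 35.6 and 34.4% on the 2-week plates, which are apart by a small margin, with a difference of 9.85 points. Under that limit 43.8% of all assays were apart and higher at 5 weeks and 5.21% apart and lower.

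**Figure D1:**
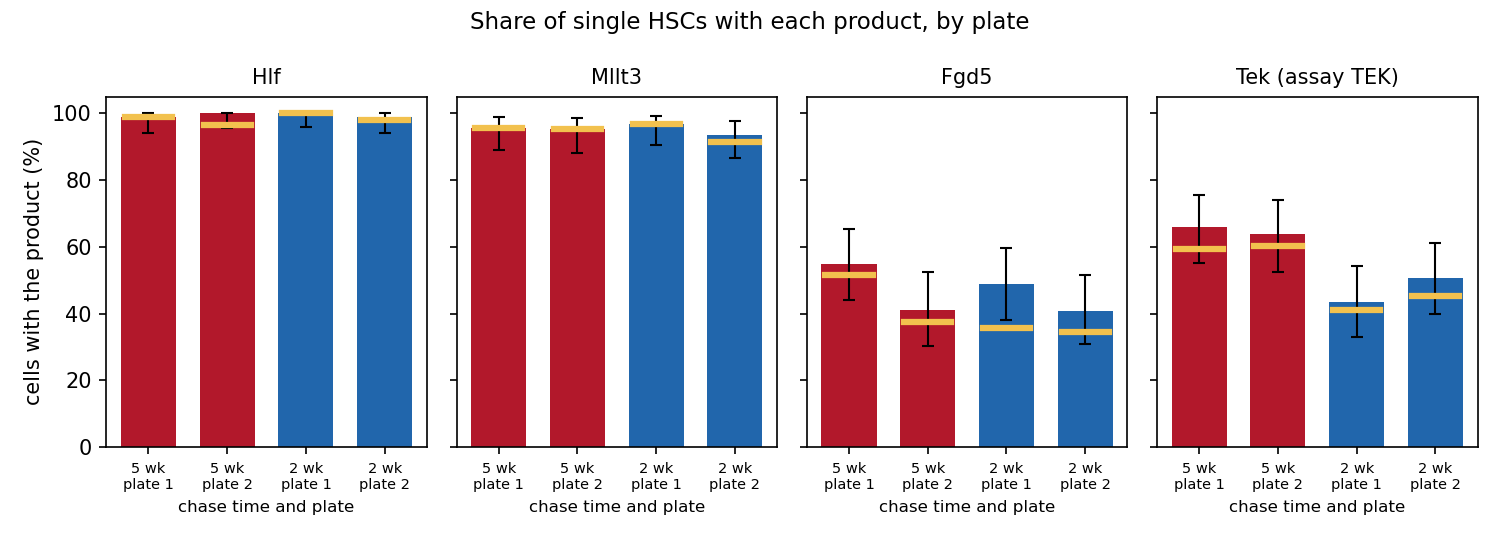
Share of single HSCs with the product of each gene at Ct 25 or below (bars, in percent of the cells of a plate) with exact 95% intervals for counting error (black), and the share at Ct 18 or below (yellow lines). The 5-week plates are red and the 2-week plates blue. The Tek bars stand at 65.9 and 63.9% on the 5-week plates and at 43.3 and 50.5% on the 2-week plates, while the Fgd5 bars of the 2 times overlap.

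Most cells held 3 or 4 of the products. All 4 were found in 29.9% of 5-week cells (interval 23.2 to 37.3%) and 21.3% of 2-week cells (15.6 to 28%). A further 50.6% of 5-week cells and 44.3% of 2-week cells held 3, and 17.2 and 33.9% held 2, in the same order. No cell lacked all 4. Fgd5 was found in 47.2% of the 199 cells with Tek (40.1 to 54.4%) and in 45.6% of the cells without it (37.6 to 53.7%). Cells with all 4 products also had more of the other 92 assays detected, 57.5 on average at 5 weeks and 52.8 at 2 weeks, against 55.6 and 50.7 in cells with 2 products.

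The amount of each transcript was compared in the cells that had it, in log2 units, by subtracting its Ct from the reference Ct of its cell. Amounts of different genes were not compared, since primer efficiencies are not known. Single cells differed widely: the SD over all detecting cells was 1.51 for Hlf, 1.46 for Mllt3, 1.44 for Fgd5 and 2.43 for Tek. The median was 1.21 over the 80 assays for which each plate had 10 or more detecting cells. The Tek SD includes 16 late products above Ct 18. The lower and upper quartiles of Tek were -3.07 and -1.23 at 5 weeks and -2.83 and -1.67 at 2 weeks. Those of Mllt3 were -1.93 and -0.21 at 5 weeks and -2.00 and 0.31 at 2 weeks.

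The Hlf level on 5-week plate 1 had a lowest value of -4.27, a median of 0.03 and a highest of 2.49. On 5-week plate 2 these were -7.78, 0.12 and 2.27. On 2-week plate 1 they were -4.08, 0.90 and 2.72, and on 2-week plate 2 they were -5.38, 0.25 and 2.76. The cells of all 4 plates overlapped almost completely, and 2-week plate 1 stood highest. The mean was -0.20 ± 1.64 at 5 weeks and 0.37 ± 1.32 at 2 weeks (SD over cells), which differ by -0.57. The plate means were apart and lower at 5 weeks, as in 45% of the 80 assays, while 26.2% were apart and higher. The difference was -0.27 without 2-week plate 1 and -0.03 in the Ct as deposited, where the plates overlapped. Within plates the Ct of Hlf hardly followed the reference Ct (Spearman's rho -0.18 to -0.02 over cells), and the reference Ct was itself lower at 5 weeks.

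The Mllt3 level was -1.08 ± 1.35 at 5 weeks and -0.89 ± 1.56 at 2 weeks. Its medians were -1.13 and -1.14 on the 5-week plates and -0.85 and -0.57 on the 2-week plates. The difference of -0.19 turned to 0.37 in the Ct as deposited and to 0.25 when centred on Actb and Gapdh, so its direction depends on the scaling. The median of the 80 assays moved in the same way: it was -0.19 with the reference assays, 0.37 in the deposited Ct and 0.26 with Actb and Gapdh. Relative to that median Mllt3 differed by -0.00, 0.01 and -0.01, and it thus had the change of a typical assay under all 3 scalings.

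The Fgd5 level was -3.78 ± 1.57 at 5 weeks (84 cells) and -4.05 ± 1.28 at 2 weeks (82 cells). Its plate means of -3.81 and -3.73 at 5 weeks lay above those of -4.12 and -3.96 at 2 weeks. The difference was 0.27, and 0.45 relative to the median of the assays. It kept its sign, with plates apart, under the deposited Ct (0.43 relative to the median) and under Actb and Gapdh (0.41). Relative to the median, 42.5% of assays were apart and higher at 5 weeks, and 18.8% were apart and lower. Hlf, relative to the median, differed by -0.39, -0.40 and -0.41 under these scalings, with overlapping plates each time.

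The Tek level in detecting cells was -2.68 ± 2.56 at 5 weeks and -2.74 ± 2.26 at 2 weeks. Its plate means were -2.97 and -2.35 at 5 weeks and -2.57 and -2.88 at 2 weeks, and they overlapped. The difference was 0.06 with the reference assays. It was 0.63 in the deposited Ct and 0.50 with Actb and Gapdh, both with plates apart and higher at 5 weeks, so whether the times separate depends on the scaling. Relative to the median of the assays Tek differed by 0.24, 0.27 and 0.24 under the 3 scalings, with overlapping plates each time.

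**Figure D2:**
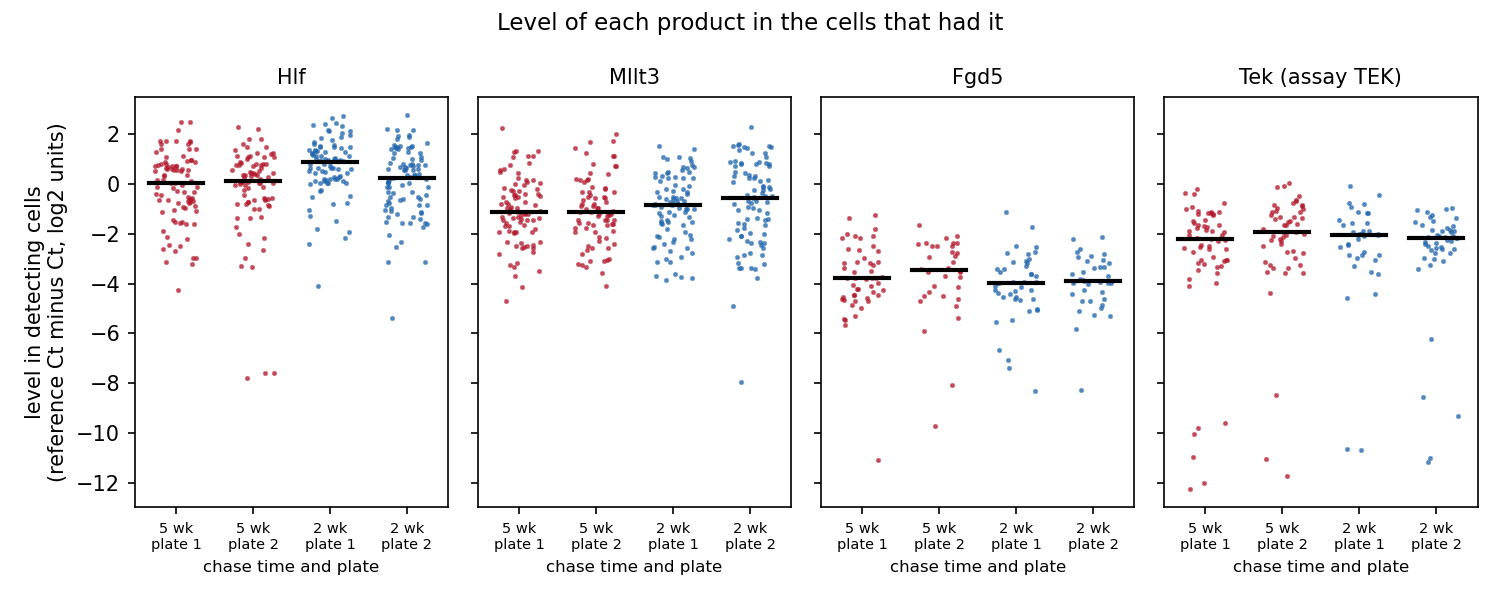
Level of each product in the cells that had it, in log2 units (reference Ct minus Ct), with 1 point per cell and a black line at the median of the plate. The 5-week plates are red and the 2-week plates blue. The clouds of the 4 plates overlap for every gene, and the Tek panel shows the late products as sparse points far below the main cloud.

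The genes were then compared with each other cell by cell. Spearman's rho was taken within each plate on the Ct, with undetected reactions at the limit and the reference Ct partialled out, so that a positive value means that cells rich in one transcript tended to be rich in the other. All cells of a plate share its chip and its preparation, cells are not replicates, and the values are descriptions over 83 to 93 cells each.

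Of the 6 pairs, 5 were positive on all 4 plates, and all were weak. Over the 80 assays that could be compared, 37.5% were positive on all plates with Hlf, 35% with Mllt3, 31.2% with Fgd5 and 16.2% with Tek. With Pearson's r in place of Spearman's rho 2 pairs were positive on all plates, Hlf with Mllt3 and Hlf with Fgd5. Mllt3 and Tek had a mean rho of 0.20 (0.09 to 0.32 over plates), Mllt3 and Fgd5 0.19 (0.11 to 0.30), Hlf and Mllt3 0.18 (0.08 to 0.25), Hlf and Fgd5 0.17 (0.13 to 0.21) and Fgd5 and Tek 0.12 (0.04 to 0.16). Hlf and Tek was the exception. Their rho was 0.03 and 0.05 on the 5-week plates and -0.18 and -0.16 on the 2-week plates. In cells that held both products the Hlf and Fgd5 pair had a mean of 0.06 and mixed signs.

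The 4 genes were next set against genes of the blood lineages, cell by cell within plates. Of the 23 assays listed for the megakaryocyte and erythroid, granulocyte and monocyte, and lymphoid lineages, 17 reached a detection share of 10% on all plates. The other 6 did not reach it on every plate. Klf1, the erythroid Krüppel-like factor, was found in 13 cells at 5 weeks and 9 at 2 weeks, and Ebf1, a B cell factor, in 0 and 0. Cebpe was found in 11 and 8 cells, Csf1r in 4 and 27, Dntt in 12 and 16 and Tcf7 in 2 and 2, in the same order. Csf1r exceeded 10% on both 2-week plates (12.2 and 17.2%) but not on the 5-week plates (3.30 and 1.20%).

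Hlf had a rho above 0 on all 4 plates with 8 of the 17 lineage assays and below 0 with 5. Over the 80 assays that could be compared these shares were 37.5 and 15%. Among the 8 megakaryocyte and erythroid assays 4 were negative, 2 positive and 2 of mixed sign over plates. The lowest were Itga2b, the platelet integrin CD41 (mean -0.30, plates -0.36 to -0.23), Gata1, the erythroid and megakaryocyte master regulator (-0.30, -0.39 to -0.17), and its cofactor Zfpm1 (-0.25, -0.31 to -0.16), followed by the erythropoietin receptor Epor (-0.12). Of the 4 granulocyte and monocyte assays 3 were positive and 0 negative, among them Sfpi (0.21, 0.14 to 0.33), as the file names the PU.1 gene, and the cytokine receptor chain Csf2rb (0.14). Of the 5 lymphoid assays 3 were positive: Ikzf1, which encodes Ikaros (0.21), the cytokine receptor Flt3 (0.20, 0.14 to 0.29) and IKZF2 (0.13). Tcf3 was weakly negative (-0.06). Nfe2, a bZIP factor needed for platelet formation, was among the 2 positive assays of the megakaryocyte and erythroid list (0.18, 0.01 to 0.30). Its signs were mixed over plates without the reference Ct partialled out.

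In plain amounts, Hlf was lower in the cells that held Gata1. Its Ct was 13.99 ± 1.61 in the 55 cells with Gata1 and 12.97 ± 1.16 in the 300 cells without it, where a higher Ct means less template. The plate means were 13.6 and 14.3 with Gata1 and 12.8 and 13.1 without it at 5 weeks, and 13.99 and 14 with Gata1 and 12.7 and 13.3 without it at 2 weeks. Cells with Gata1 had the higher Hlf Ct on every plate, by 0.77 to 1.29 cycles, or 1.04 on average with the reference Ct as covariate. With Itga2b, held by 36 to 51 of these cells a plate, the Hlf Ct was 13.4 ± 1.48 and without it 12.9 ± 1.05, a difference of 0.44 to 0.82 cycles by plate. Flt3 went the other way, with 13 ± 1.25 in the cells that held it, 34 to 49 a plate, and 13.2 ± 1.32 in those that did not. Among cells that held both Hlf and Gata1, 10 to 17 a plate, the rho ran from -0.49 to 0.39 with no common sign over the plates. Epor and Cebpb also lost their common sign with Hlf in such cells, and the other 10 of the 13 lineage assays with a common sign kept it.

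Mllt3 was ordered differently. It was positive with 4 and negative with 6 of the 17 lineage assays, against 35 and 18.8% of the 80 assays. Its highest partner of all was vwf, the von Willebrand factor gene that marks platelet-biased HSCs, with rho 0.34 and 0.55 on the 5-week plates and 0.31 and 0.49 on the 2-week plates. Its lowest lineage partners were Flt3 (-0.25, -0.31 to -0.19) and Sfpi (-0.19, -0.23 to -0.17), with Csf2rb (-0.12) and Cebpa, a granulocyte and monocyte factor (-0.08), also negative on all plates. Itga2b (-0.13) and Gata1 (-0.07) were below 0 with Mllt3 as they were with Hlf. In cells that held both products each of these 6 pairs had mixed signs over plates (-0.36 to 0.03 for Flt3), whereas vwf stayed positive on all plates (0.25 to 0.41). Of the 17 assays, 4 had opposite signs for Hlf and Mllt3 on all plates (Csf2rb, Flt3, Sfpi and Zfpm1). Another 3 had the same sign, Gata1 and Itga2b among them, and the 2 genes were weakly positive with each other. Such a count over all 80 assays is not given here, so the split cannot be called particular to lineage genes.

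The Mllt3 Ct was 13.6 ± 1.33 in the cells that also held vwf, 30 to 44 a plate, and 14.6 ± 1.25 in those that did not, so cells with vwf had about 1 cycle more Mllt3 template. The plate means were 13.5 and 13.6 with vwf and 14.3 and 14.7 without it at 5 weeks, and 14.1 and 13.3 with vwf and 14.7 and 14.7 without it at 2 weeks. With Flt3 the Mllt3 Ct was 14.5 ± 1.39, in 32 to 46 cells a plate, and without it 13.9 ± 1.31. The differences by plate were -1.38 to -0.65 cycles for vwf and 0.46 to 0.86 for Flt3, and with the reference Ct as covariate the means were -1.0 and 0.60. These pairs were chosen for display after the correlations were seen.

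Cells that held vwf but not Flt3 were also set against cells that held Flt3 but not vwf. Cells of the first kind, 21 to 30 a plate, had an Mllt3 Ct of 13.4 ± 1.24, against 14.8 ± 1.31 in those of the second, 21 to 38 a plate. Tek was found in 70.3% of the first (60.4 to 79%) and 49.6% of the second (40.2 to 59%), and on each plate the share was higher in the first: 80 and 66.7% against 66.7 and 61.9% at 5 weeks, and 64 and 71.4% against 38.7 and 39.5% at 2 weeks. The Hlf Ct was 13.4 ± 1.44 and 13 ± 1.28, and Fgd5 was found in 46.5 and 42.7%, in the same order. Tek was found in 52.9% of cells with both vwf and Flt3 and 48.9% of cells with neither. On 5-week plate 2 its share in cells with neither was 68.4%, above the 66.7% with vwf only. The classes were formed after the correlations were seen. Their shares were not adjusted for the reference Ct, and such differences are not given here for all assays.

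**Figure D3:**
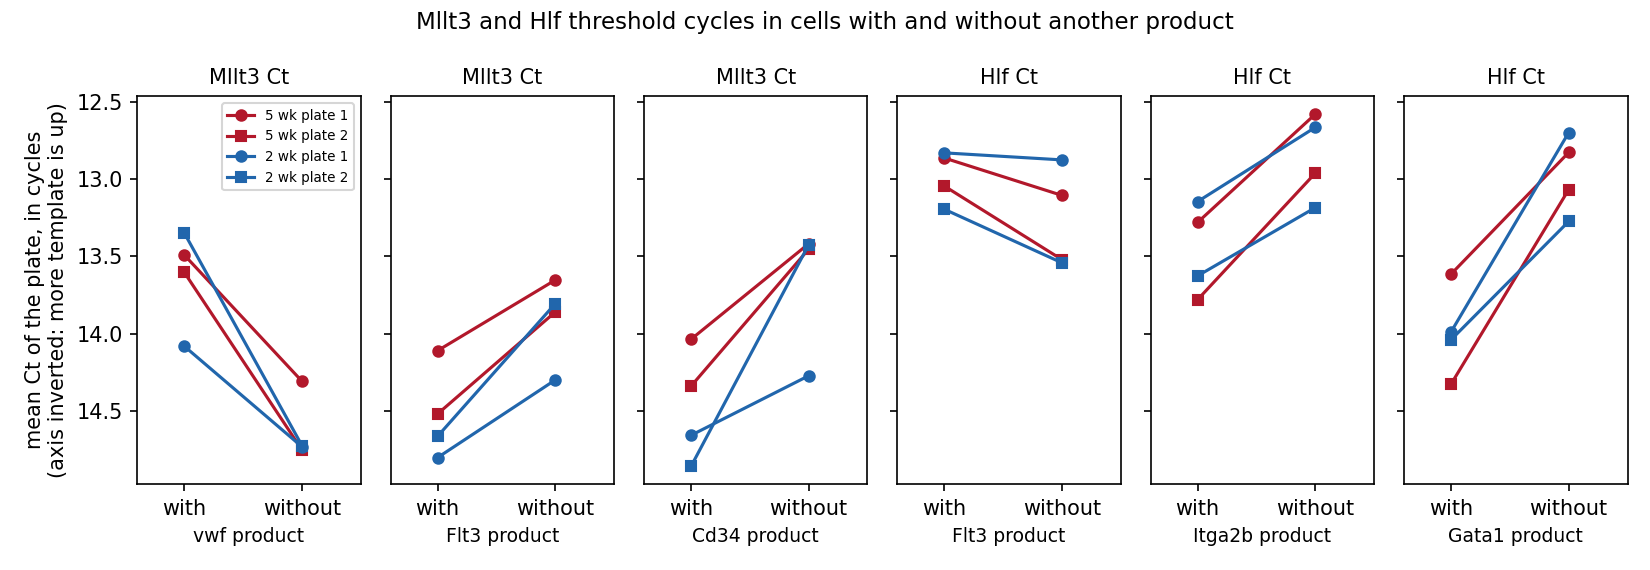
Mean Ct of Mllt3 (left 3 panels) and Hlf (right 3 panels) on each plate, in cycles on an inverted axis so that more template is up, in cells with and without the product named under the panel. Each line is 1 plate, 5-week plates in red and 2-week plates in blue. All 4 lines fall from left to right for Mllt3 with vwf and all rise for Hlf with Gata1 and Itga2b.

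Fgd5 and Tek were only loosely tied to the lineage assays. Fgd5 was positive on all plates with 4 of 17 and negative with 1, against 31.2 and 3.75% of the 80 assays, and no mean exceeded the 0.14 of Cebpb in size. Tek was positive with 3, all of the megakaryocyte and erythroid list, and negative with 0, against 16.2 and 2.5%. These were Itga2b (0.16, plates 0.03 to 0.30), vwf (0.15, 0.03 to 0.29) and Epor (0.04). The 5-week plates gave the lower values for Itga2b and vwf. For Itga2b they had 0.03 and 0.10, against 0.30 and 0.21 on the 2-week plates, and for vwf 0.03 and 0.06, against 0.22 and 0.29. In cells that held both products the signs of all 3 pairs were mixed over plates. Over all 4 genes 19 of the 68 pairs with lineage assays were positive and 12 negative on all plates, where 30% of the pairs with any assay were positive and 10% negative.

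**Figure D4:**
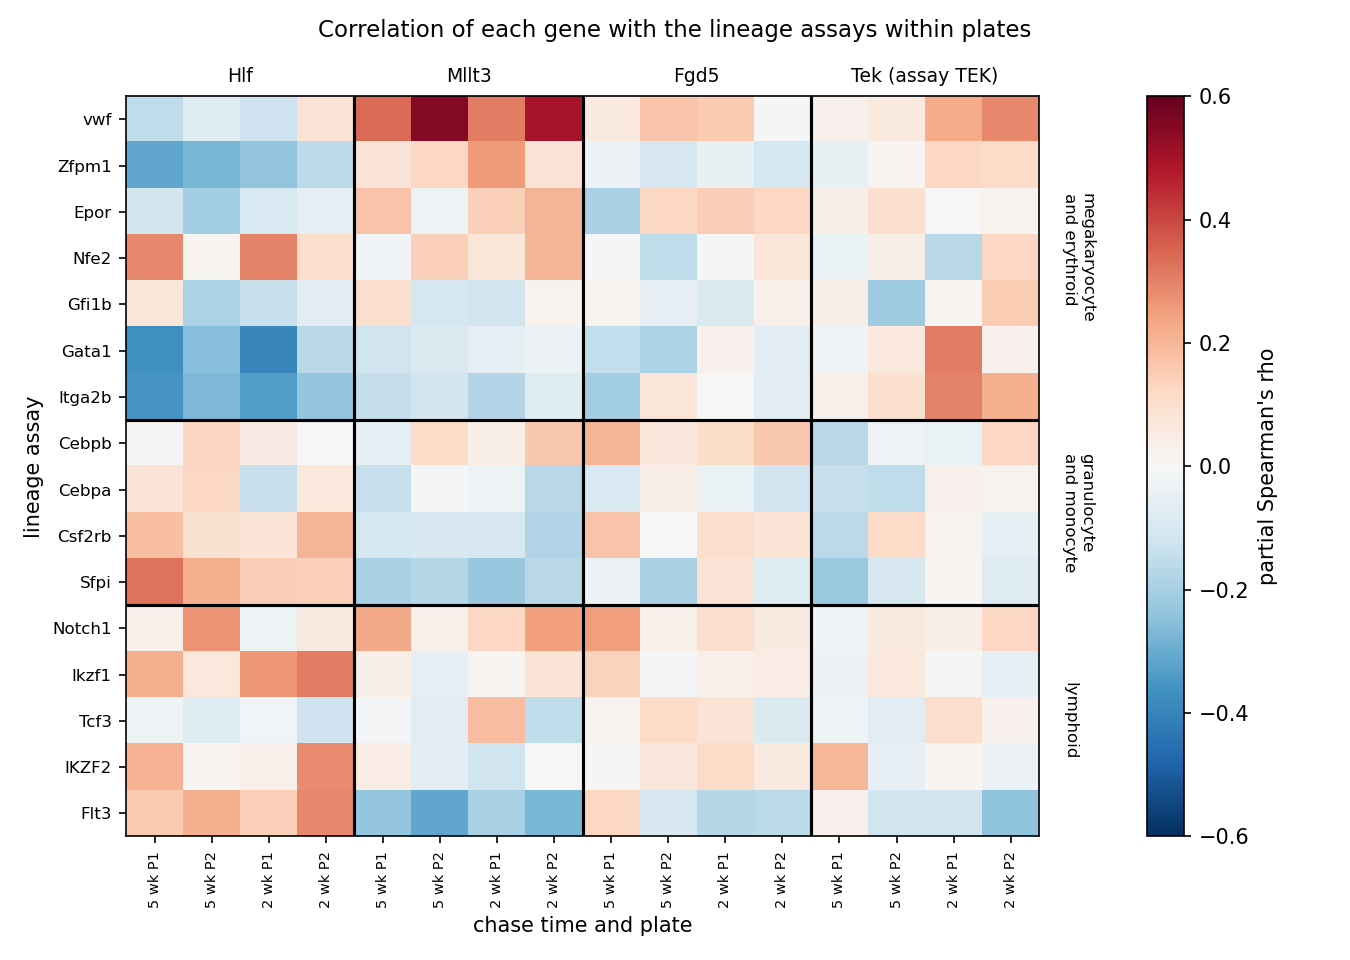
Partial Spearman's rho of each of the 4 genes (blocks of columns, 1 column a plate) with 16 of the 17 lineage assays (rows, grouped by lineage), from -0.6 in blue to 0.6 in red. The Mllt3 block is darkest red at vwf (0.31 to 0.55) and blue at Flt3 and Sfpi. The Hlf block is blue at Gata1, Itga2b and Zfpm1. The Fgd5 and Tek blocks, where many cells are undetected and enter at the limit, are pale.

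Because the Tek and Fgd5 products were not detected in many cells, the lineage products could also be counted in cells with and without them. Itga2b was found in 54.3% of the cells with Tek (47.1 to 61.3%) and 34.2% of those without (26.8 to 42.1%). On the plates this was 61.7 against 48.4% and 49.1 against 36.7% at 5 weeks, and 56.4 against 27.5% and 48.9 against 30.4% at 2 weeks. Cells with Tek were thus richer in Itga2b on every plate, by 18.3 points on average, while 6.25% of the 80 assays were more frequent and 2.5% less frequent with Tek on all plates. Cells with Tek also had a lower reference Ct, with plate means of 12.7 and 13 at 5 weeks and 13.4 and 13.4 at 2 weeks, against 13, 13.3, 13.6 and 13.4 in cells without Tek. With the reference Ct as covariate the Itga2b difference was 11.3 points and ranged from -0.46 to 22.4 over plates, and it was 6.91 points at Ct 18. Flt3 was found in 42.7% of cells with Tek and 52.5% of those without, a mean difference of -10.6 points that was below 0 on all plates before and after the adjustment (-9.34). vwf was found in 49.2 and 34.2%, with 1 plate of opposite sign.

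Cells with Fgd5 held IKZF2 more often, in 57.8% against 45.5% of cells without Fgd5, and by 8.70 to 14.5 points on the plates. They held Gfi1b, a repressor needed for megakaryocyte and erythroid development, less often, in 62.7 against 71.2%, by 2.11 to 17.3 points. Notch1 was found in 56.6 and 48.2% and Gata1 in 12 and 18.8%, in the same order, and both lost the common sign with the reference Ct as covariate. Of the 80 assays, 13.8% were more frequent and 5% less frequent with Fgd5 on all plates. Mllt3 and Hlf were undetected in too few cells, 3 to 6 and 0 to 1 a plate, for such a split.

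Beyond the lineage lists, the nearest assays by mean rho, among those with 1 sign on all plates, differed from gene to gene. Hlf was nearest to mettl7a1, a methyltransferase-like gene (0.37, 0.25 to 0.45), and to Ly6a, which encodes Sca1 (0.33, 0.19 to 0.40). Besides vwf, Mllt3 was close to Cdkn1c, which encodes the cell cycle inhibitor p57 (0.30), and the Polycomb methyltransferase gene Ezh1 (0.28). Its lowest were Cd34, which is low on long-term HSCs of adult mice (-0.39, -0.56 to -0.22), the growth regulator Myc (-0.26) and the G1 kinase CDK6 (-0.23). Fgd5 was nearest to the Polycomb gene Cbx6 (0.23), mettl7a1 (0.23), the ceramide synthase gene Cers4 (0.21) and Mllt3 (0.19), and lowest with Myc (-0.19). Among the assays nearest to Tek was Mllt3 (0.20), and Tek was lowest with the cyclin gene Ccnd2 (-0.13) and the transcription factor gene Lyl1 (-0.07). Without the reference Ct partialled out these means were 0.01 and 0.02, with mixed signs over plates. In cells that held both products, Mllt3 with Myc had mixed signs over plates (-0.28 to 0.17). So did Fgd5 with Cers4 and Tek with Lyl1, and the other pairs named in this paragraph kept their sign.

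The Mllt3 Ct in cells with and without Myc and Cd34 gives the size of these relations. It was 14.4 ± 1.39 in the 276 cells with Myc and 13.5 ± 1.04 in the 64 without, and 14.4 ± 1.40 in the 230 cells with Cd34, against 13.7 ± 1.19 in the others. On every plate the cells with Myc and the cells with Cd34 had less Mllt3, by 0.27 to 1.16 and 0.39 to 1.43 cycles. Fgd5 shared the relation to Myc, which was found in 75.3% of cells with Fgd5 and 86.9% of cells without it, a difference below 0 on all plates. The Hlf Ct was 13.13 ± 1.38 in cells with Cd34 and 13.12 ± 1.09 in cells without it, although the rho of Hlf with Cd34 was weakly positive on all plates (0.08 to 0.15).

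The other 24 HSC-associated assays set the change in Tek in context. Between the times 11 of them were apart and higher at 5 weeks, 3 apart and lower and 10 overlapping, with a median of 3.22 points, close to the 2.85 of all assays, of which 42.7% were apart and higher and 7.29% apart and lower. The largest differences among those with plates apart were those of Nkx2.3 (27.5 points), pbx3 (20.7), Ly6a (-18.3), Slamf1 (-16.4), Cd34 (16.4) and Tal1 (15.7). Zfp37 differed by more, -40.1 points, but its plates overlapped, with 13.2 and 21.7% at 5 weeks and 100 and 16.1% at 2 weeks. It was named after its values were seen. Tek, at 17.9 points, lay within that range, and Hlf and Mllt3, at -0.03 and 0.32, lay near 0, where shares of nearly 100% leave little room for a gain. In amount per detecting cell, 9 of the 22 that could be compared were apart and higher, 7 lower and 6 overlapping, with a median of 0.09 log2 units. Over all 80 assays 26.2% were apart and higher and 45% apart and lower, with a median of -0.19.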

How the data were processed

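Single HSCs were sorted into wells, reverse transcribed, pre-amplified for 22 cycles with all 96 assays, diluted 5-fold and run for 30 cycles of quantitative PCR with EvaGreen on a microfluidic dynamic array, per the labels' protocols. The authors deposited Ct values that were not normalized, with 999 for no product. No source used here gives how the Ct threshold was set or whether melting curves were used to remove products. All 357 cells were assigned by their titles to a chase time and plate.

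Detection meant a Ct of 25 or below. Wells needed 20% of assays detected, and 0 were removed. Each plate had 14 assays in common with a detection share of 95% or more. Hlf was one and was left out, and the reference Ct was the mean of the other 13: Gapdh, Actb, Trp53, CDK4, Ccnd2, Lmo2, Ldb1, Gata2, Etv6, Zfpm1, Nfe2, Meis1 and Kit. A reference assay was also left out of the reference in its own correlations. Because the labels name no animal, the spread between plates may be technical and no p was computed.

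The 4 genes and the lists were chosen with earlier results of these data known. Named genes were these 4, the lineage assays, up to 6 HSC-associated assays with plates apart for detection, and up to 4 assays at each end of the mean rho with 1 sign on all plates. Some genes that this rule took are counted but not reported by name here. Alternatives covered the Ct limit, well filter, centring, covariates, correlation measure and leaving out each plate. The comparisons of Ct in cells with and without another product, the classes by vwf and Flt3, the count at Ct 14 and the differences relative to the median assay were added after seeing the data. The difference in share, the difference in level and the partial rho were tested on simulated data. Assay names were matched to RefSeq mouse symbols (GRCm38.p6), TEK to Tek by case, and no coordinates or sequences are given, since no source used here gives the primers. Python 3.11.15, pandas 2.3.3, numpy 2.4.6, scipy 1.17.1 and statsmodels 0.14.6 were used.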

Additional observations from a re-analysis of the deposited data

Results flagged for a closer look

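The 6 pairs between the genes and the 68 pairs with lineage assays were searched for a change of sign. Pairs with other assays are not counted here. In 3 of the pairs searched the partial rho had one sign on both 5-week plates and the opposite sign on both 2-week plates. For Hlf with Tek it was 0.033 and 0.052 at 5 weeks and -0.18 and -0.16 at 2 weeks. For Tek with Cebpa it was -0.14 and -0.15 at 5 weeks and 0.026 and 0.021 at 2 weeks. For Tek with Tcf3, of the lymphoid list, it was -0.025 and -0.063 at 5 weeks and 0.11 and 0.026 at 2 weeks. The difference between the times was not tested in any of them, since each time was 1 sample, and several of these values are close to 0. How many such pairs scatter between plates alone would give was not estimated. The count of 3 is therefore not read as a change with time.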

How the results depend on the processing

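The differences between the times in the share of cells with each product moved by less than their counting interval in all 42 alternatives. Leaving out each plate in turn gave -0.57 to 0.55 points for Hlf, -1.26 to 1.85 for Mllt3, -3.84 to 10.1 for Fgd5 and 14.4 to 21.6 for Tek. The shares themselves could move further. That of Fgd5 over all cells was 39.8% at Ct 18, below its interval of 41.2 to 51.8% at Ct 25. At Ct 18, a limit not corrected for the reference Ct, the Fgd5 plates of the times were apart rather than overlapping. The levels depended on the scaling. In the Ct as deposited they differed by -0.034 for Hlf, 0.37 for Mllt3, 0.79 for Fgd5 and 0.63 for Tek, and centred on Actb and Gapdh by 0.25 for Mllt3, 0.67 for Fgd5 and 0.50 for Tek. The median over cells gave -0.39 for Mllt3. The Fgd5 level differed by 0.13 at Ct 18. Over all cells, with undetected reactions at the limit, the difference was 0.11 for Fgd5 and 1.47 for Tek. Relative to the median assay it was -0.0010 for Mllt3 and 0.45 for Fgd5. The cause of these changes was not tested. Between the 4 genes, Pearson's r gave 0.076 for Mllt3 with Fgd5, 0.059 for Fgd5 with Tek and 0.16 for Mllt3 with Tek, each with mixed signs over plates. This leaves 2 of the 6 pairs positive on all plates, against 5 with Spearman's rho. Cells with both products gave 0.055 for Hlf with Fgd5 and 0.18 for Fgd5 with Tek. In such cells, which are fewer, 12 lineage pairs were positive and 7 negative on all plates, Fgd5 with Zfpm1 turned to 0.024 and Tek with Itga2b to -0.062. Mllt3 with Itga2b turned to 0.014 at Ct 18. The deposited Ct gave 22 positive and 15 negative pairs, Pearson's r 14 and 9, and leaving out a plate 21 to 25 and 13 to 16. Over all 80 assays the deposited Ct gave 24 positive and 22 negative with Hlf and 31 and 11 with Mllt3. It gave 21 and 8 with Fgd5 and 34 and 2 with Tek. Such counts are not given here for Pearson's r or without a plate. The logistic fit could not be made for Hlf, which was undetected in 2 cells. No paired analysis was possible because each plate held 1 chase time and plate numbers do not link the times.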
